A study of Mus musculus with 3 samples.

Results

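The genes described here are 42 transcripts that type I interferon is known to induce, taken as a named list. All 42 were among the 17678 genes of the brain table, the 16462 of the naive blood table and the 16887 of the table of blood from metastasis-bearing mice. By role they were 12 nucleic acid sensors, 10 direct antiviral effectors, 3 signal factors, 2 genes of the ISG15 system, 4 Schlafen genes and 11 other induced proteins.

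The study read RNA, surface antibody tags and hashtags (barcoded antibodies that mark each sample) in single cells of 1 pool of 8 hashed samples from female C57Bl/6-background mice aged 2 to 3 months. The brain samples were 1 hemisphere each from naive mice flushed with saline, enriched for immune cells on a density gradient, with 2 hashed samples of CCR2+/- and 2 of CCR2-/- mice. Blood was drawn from the heart and depleted of red cells, with a Het and a Hom sample of naive mice and a Het and a Hom sample of mice with metastases, each a group of 1. The metastasis-bearing mice had received E0771 cells, a mouse breast cancer line, through the carotid artery about 2 weeks earlier. The labels list the genotypes Cx3cr1+/-, Cx3cr1-/-, CCR2+/- and CCR2-/- for the pool, and do not say which gene Het and Hom stand for. No sample was wild type by its label. Nothing states that hashtags of 1 brain genotype were separate animals, so p-values measure the spread between these samples, which may be technical.

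Type I interferons (interferon beta and the interferon alphas) bind the receptor pair Ifnar1 and Ifnar2 and activate a factor complex that includes Stat2 and Irf9 and binds a DNA element of paired GAAA motifs, the interferon-stimulated response element. The genes so switched on include sensors of foreign RNA and DNA, proteins that block viral translation or release, and factors such as Irf7 that raise interferon output further. Many cells keep some of these genes on at rest, while others are silent until a cell meets interferon, and in the brain microglia, border macrophages and endothelial cells can all respond.

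The promoters below are shown because the members differed in how much of their counts lay in few cells. The response element was set beside that difference. RefSeq promoter windows of 300 bases (250 before the start site to 50 after it, build GRCm38.p6) were matched by symbol for 34 of the 42 members. The element was searched as GAAA, any 2 bases, then GAAA on either strand, and a second motif as TTCNNNGAA, which reads alike on both strands. Each sequence runs 5′ to 3′ on the gene's strand and ends at the base before the start, with these motifs in capitals.

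Of 10 members, Ifit1, Ifit3, Ifit3b, Isg15 and Rsad2 had the core element, Bst2 had 2 overlapping cores and an overlapping TTCNNNGAA, and Plscr1 had a TTCNNNGAA alone. Oasl1, Irf7 and Slfn4 had neither within the bases shown.
Ifit1 (chr19:34640775-34640888, plus strand): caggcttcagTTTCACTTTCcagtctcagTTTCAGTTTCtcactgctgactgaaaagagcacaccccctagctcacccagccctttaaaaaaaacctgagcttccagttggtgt
Ifit3 (chr19:34583363-34583528, plus strand): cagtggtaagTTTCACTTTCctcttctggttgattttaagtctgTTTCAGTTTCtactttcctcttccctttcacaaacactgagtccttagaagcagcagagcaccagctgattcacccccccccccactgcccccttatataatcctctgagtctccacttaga
Ifit3b (chr19:34607759-34607956, plus strand): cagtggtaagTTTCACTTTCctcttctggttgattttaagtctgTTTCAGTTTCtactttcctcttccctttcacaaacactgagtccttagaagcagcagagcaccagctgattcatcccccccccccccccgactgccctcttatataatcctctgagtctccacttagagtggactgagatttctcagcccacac
Isg15 (chr4:156200819-156200906, minus strand): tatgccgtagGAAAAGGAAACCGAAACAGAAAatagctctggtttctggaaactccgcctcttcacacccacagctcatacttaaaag
Rsad2 (chr12:26456453-26456582, minus strand): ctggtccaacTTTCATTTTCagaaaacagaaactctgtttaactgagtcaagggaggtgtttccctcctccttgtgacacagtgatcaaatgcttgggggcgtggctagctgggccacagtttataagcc
Oasl1 (chr5:114923120-114923239, plus strand): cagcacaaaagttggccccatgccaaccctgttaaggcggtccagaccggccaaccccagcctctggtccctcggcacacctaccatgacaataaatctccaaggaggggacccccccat
Irf7 (chr7:141266425-141266544, minus strand): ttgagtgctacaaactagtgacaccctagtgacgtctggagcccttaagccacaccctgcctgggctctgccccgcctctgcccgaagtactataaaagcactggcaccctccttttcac
Bst2 (chr8:71537473-71537618, minus strand): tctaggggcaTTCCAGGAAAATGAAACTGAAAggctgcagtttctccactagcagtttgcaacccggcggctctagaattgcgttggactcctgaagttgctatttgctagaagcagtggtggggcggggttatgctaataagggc
Plscr1 (chr9:92250094-92250193, plus strand): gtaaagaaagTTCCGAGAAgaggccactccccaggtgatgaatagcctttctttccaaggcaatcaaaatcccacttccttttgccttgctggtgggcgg
Slfn4 (chr11:83175066-83175185, plus strand): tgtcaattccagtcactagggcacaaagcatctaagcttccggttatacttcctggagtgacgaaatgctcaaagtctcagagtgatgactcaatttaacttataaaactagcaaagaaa
Isg15 carried 3 overlapping cores between positions -78 and -57 from its start, and the windows of Ifit3 and Ifit3b held the same pair of cores in the same order. Over the whole window 19 of 34 members (55.9%) held the core, against 1079 of 27025 genes (3.99%) and 3.44% of 32851 promoters. Before the start alone it was 16 members (47.1%) against 3.46% of genes. TTCNNNGAA stood in 7 members (20.6%) and in 9.55% of genes. A match of letters is a description and not a measured site.

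Cells are grouped by the authors' own cluster numbers, which were named here from fixed marker lists, and levels are corrected counts per 10000 in a cluster. Only clear cells were used, those whose barcode stood in a single table and whose hashtag counts came, by a share of at least 0.5, from that table's own samples: 3350 of 5208 brain cells, 3694 of 5363 naive blood cells and 4019 of 5757 cells from metastasis-bearing mice. Clear cells per sample ran from 675 to 2074, median raw depths from 3929 to 7394 UMIs (molecules counted per cell), and summed corrected counts from 4420428 to 9267629. The brain clusters held 1232 microglia-like cells, 191 border macrophages and dendritic cells, 248 NK and T cells, 301 endothelial cells and fibroblasts, and 1236 low-RNA cells with a median of 1563 UMIs, which stayed unnamed. As a check of the labels, Ccr2 in the cluster of border macrophages and dendritic cells stood at 2.66 and 3.16 in the CCR2+/- pair and at 0.290 and 0.470 in the CCR2-/- pair (limma log2 difference -2.84, adjusted p = 0.00137). In monocyte-like blood cells Cx3cr1 stood at 3.18 and 0.426 in naive Het and Hom and at 2.20 and 0.277 in metastasis Het and Hom, while Ccr2 stood at 12.2 and 12.6 and at 17.7 and 15.7.

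The 42 genes differed first in which cells held them at rest. Their summed level was 14.1 per 10000 over the brain table, 40.4 over naive blood and 33.7 over blood of metastasis-bearing mice, from 30904, 69102 and 59821 corrected counts. Taking 1 per 10000 as the mark of a baseline gene, microglia-like cells held 2 members at baseline (Bst2 and Lgals3bp; 4.76% of members against 9.34% of all detected genes), and endothelial cells and fibroblasts held 8 (19.1% against 11.4%). Border macrophages and dendritic cells held 7 (16.7% against 9.96%). Naive neutrophil-like cells held 15 (35.7% against 8.81%) and naive monocyte-like cells 19 (45.2% against 12.1%), against 8 and 14 in the same classes of metastasis-bearing mice. B-like cells held 2 in either blood table, Ifi27l2a and Ifi203. The median member stood at 0.084 in microglia-like cells, 0.442 in border macrophages and dendritic cells, 0.483 in endothelial cells and fibroblasts, and 0.948 in naive monocyte-like cells. These are levels in cells the authors clustered with these genes among all others, so no test was made between clusters, and levels of different genes are not ranked, because each is read from its own 3′ end.

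**Figure D1:**
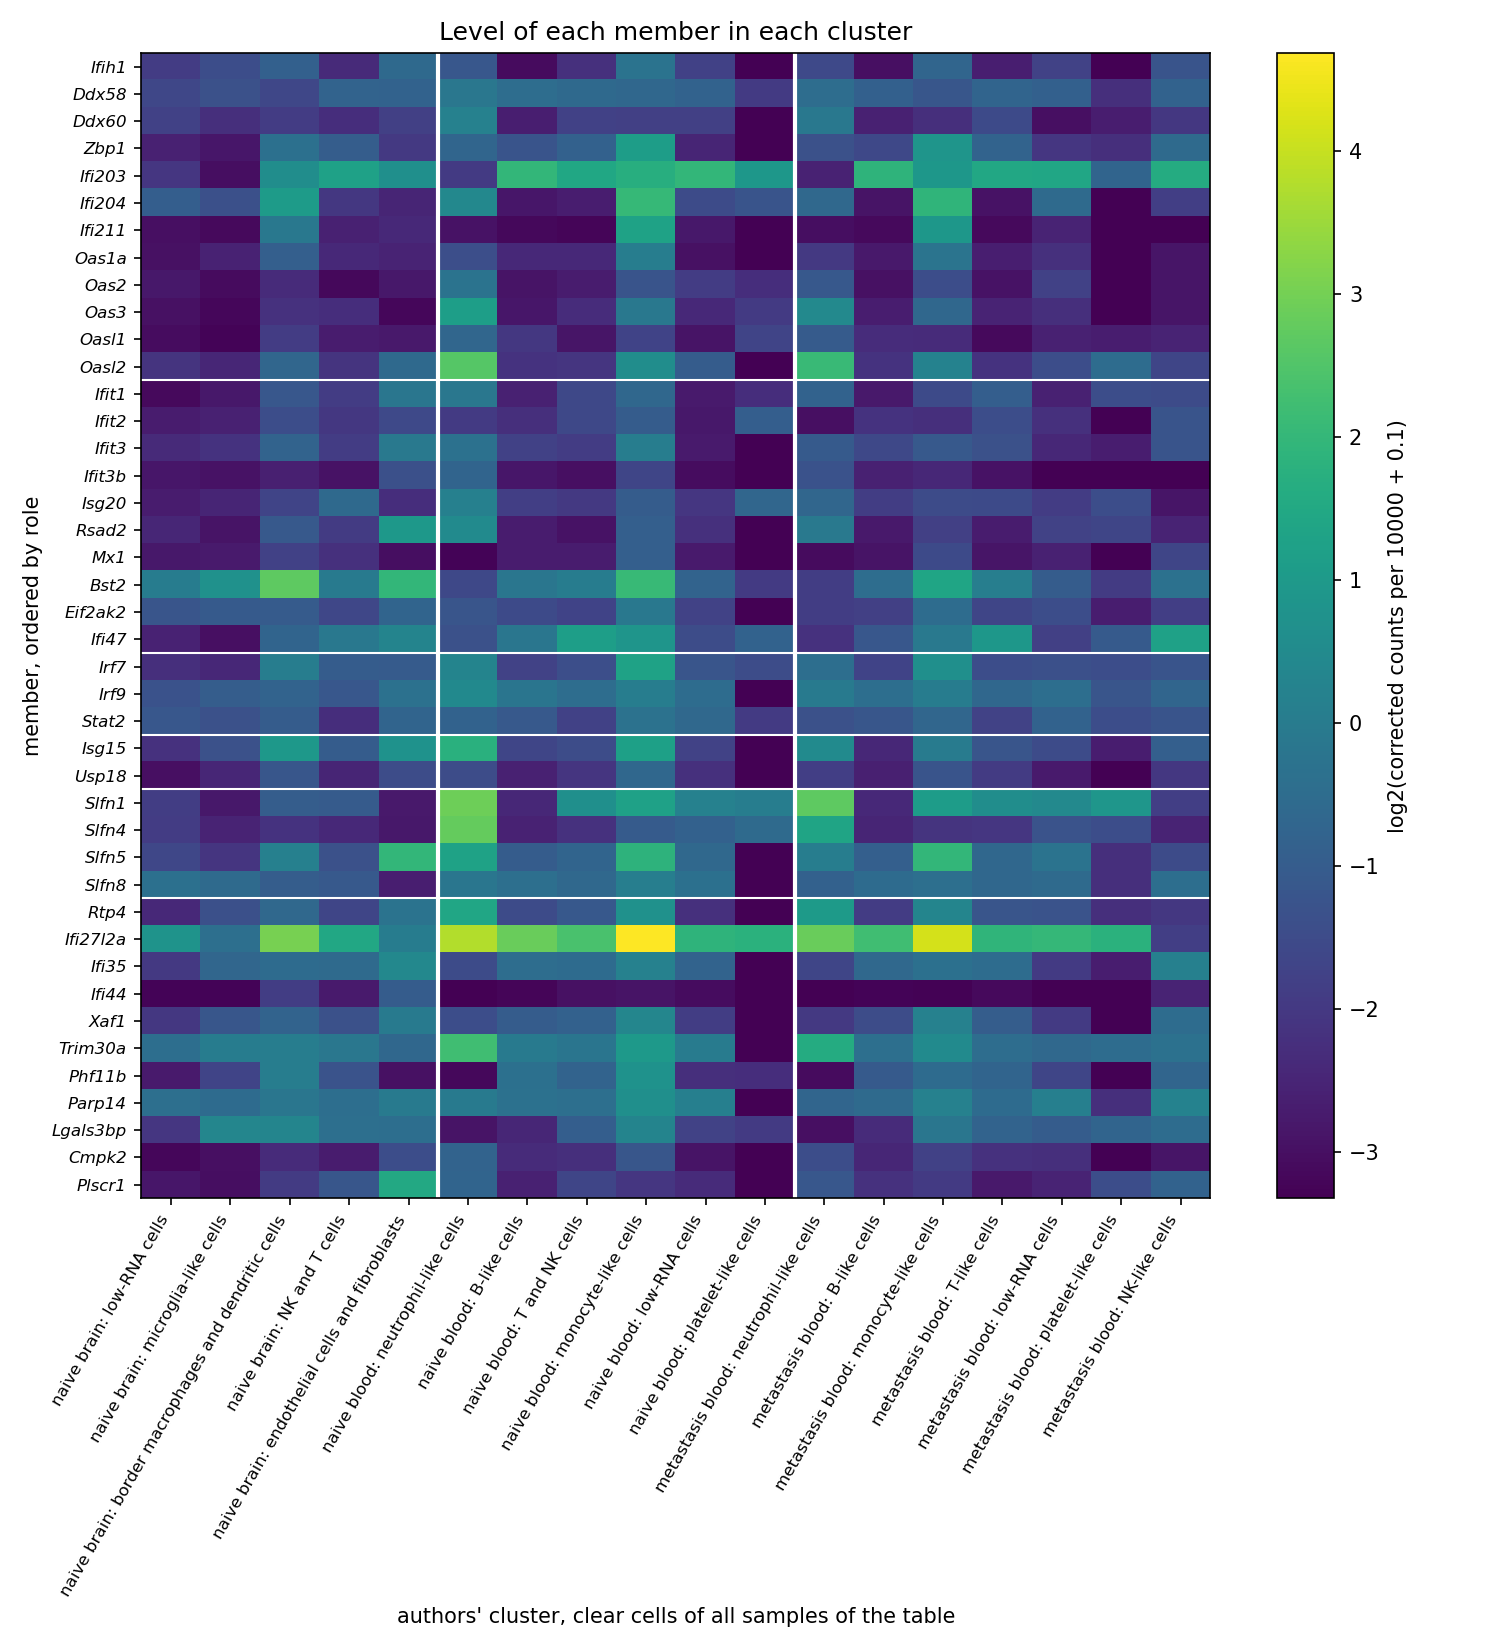
Level of each of the 42 members (one line of the grid each) in 18 clusters of the 3 tables (columns), as log2 of corrected counts per 10000 plus 0.1, over all clear cells of a cluster. Light colours are high levels: microglia-like cells are dark for most members, with Bst2 at 1.57 and Lgals3bp at 1.17, while naive neutrophil-like and monocyte-like cells are light for many.

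The nucleic acid sensors split by lineage. Ifi204, a DNA sensor of the Ifi200 family, stood at 1.98 in border macrophages and dendritic cells, 0.290 in microglia-like cells and 0.0786 in endothelial cells and fibroblasts, and at 4.06 in naive monocyte-like cells. A count of it was present in 71.2% of naive monocyte-like cells (median depth 11709 UMIs) and in 1.77% of B-like cells (4810 UMIs). In the brain its samples were at 2.53 and 1.65 (CCR2+/-) and 1.24 and 2.15 (CCR2-/-), so the genotypes overlapped. Ifi211, of the same family, followed a like pattern, at 0.814 in border macrophages and dendritic cells and 0.0150 in microglia-like cells, and at 2.33 in naive monocyte-like cells against 0.0314 in naive neutrophil-like cells.

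Ifi203 from the same locus had another distribution, since lymphocytes held it. It stood at 2.32 in NK and T cells of the brain, with samples at 2.54, 1.86, 2.31 and 2.27, and at 0.0235 in microglia-like cells. In naive blood it was at 3.87 in B-like cells (3.94 in Het, 3.82 in Hom) and at 0.155 in neutrophil-like cells. It was not confined to lymphocytes, with 1.43 in border macrophages and dendritic cells, 1.49 in endothelial cells and fibroblasts and 3.13 in naive monocyte-like cells.

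In the oligoadenylate synthetase family, known for making the signal that turns on RNase L, 4 of the 5 genes were higher in neutrophil-like than in monocyte-like cells of naive blood. Oasl2 was at 5.89 in naive neutrophil-like cells (6.52 in Het, 4.54 in Hom) and 0.124 in B-like cells, with a count in 66.3% and 5.31% of them (median depths 2964 and 4810 UMIs). Oas3 stood at 2.15 in naive neutrophil-like cells and 0.829 in monocyte-like cells, and Oas2 at 0.720 and 0.326. Oas1a was the other way, at 0.282 in neutrophil-like and 0.940 in monocyte-like cells. None of the 5 genes reached 1 per 10000 in any named brain cluster, where the highest was Oasl2 at 0.569 in endothelial cells and fibroblasts.

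Zbp1, a sensor of Z-form nucleic acid that can start necroptosis, was at 2.09 in naive monocyte-like cells and 0.0396 in microglia-like cells. The RNA helicases Ifih1 (MDA5) and Ddx58 (RIG-I) were low throughout, Ifih1 between 0.0957 and 0.569 over the named brain clusters and Ddx58 between 0.227 and 0.490. Ddx60, their cofactor, reached 1.05 in naive neutrophil-like cells.

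Among direct effectors, Bst2 was at baseline in microglia-like cells, in border macrophages and dendritic cells and in endothelial cells and fibroblasts. Bst2 encodes tetherin, which holds budding virus on the cell surface. Its level in microglia-like cells was 1.47 and 1.43 (CCR2+/-) against 1.45 and 1.81 (CCR2-/-), and in border macrophages and dendritic cells 5.60 and 6.08 against 7.13 and 7.44. It had a count in 67.1% of microglia-like cells and 79.6% of border macrophages and dendritic cells. In blood it separated monocyte-like cells (4.12 naive) from neutrophil-like cells (0.233 naive), with shares of 68.3% and 6.48% at median depths of 11709 and 2964 UMIs.

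The other effectors were low in microglia. Rsad2 (viperin, an enzyme that makes a chain-terminating nucleotide) was at 1.84 in endothelial cells and fibroblasts with a count in 34.9% of cells, and at 0.0342 in microglia-like cells with a count in 1.38%. Ifit1, which binds foreign RNA caps, was at 0.777 against 0.0439, and Ifit3, its partner protein, at 0.837 against 0.127. Ifi47, an immunity-related GTPase, was at 1.13 against 0.0246 and was also a lymphocyte gene, at 2.14 in naive T and NK cells and 2.31 in NK-like cells of metastasis-bearing mice. Eif2ak2 (PKR, the RNA-activated kinase that stops translation) was alike across brain clusters, between 0.227 and 0.4996. Mx1, a GTPase that traps viral nucleocapsids, was at 0.437 in naive monocyte-like cells and 0.00588 in neutrophil-like cells. Isg20, an RNA exonuclease, was at 0.562 in brain NK and T cells and at most 0.212 in the other named brain clusters.

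The 3 signal factors were present in all named brain clusters and in the 4 main clusters of naive blood. Irf9, the DNA-binding subunit beside Stat2, stood between 0.347 and 0.694 over the named brain clusters and between 0.627 and 1.29 over the 4 main naive blood clusters. Stat2 stood between 0.108 and 0.504 and between 0.195 and 0.719. Irf7, which amplifies interferon production, varied more, at 0.0856 in microglia-like cells against 0.963 in border macrophages and dendritic cells, and at 0.196 in naive B-like cells against 2.34 in monocyte-like cells. Isg15, the ubiquitin-like modifier, stood at 0.298 in microglia-like cells, 1.84 in border macrophages and dendritic cells and 1.59 in endothelial cells and fibroblasts. Usp18, which removes Isg15 from proteins and damps the receptor, was between 0.0778 and 0.340 over the named brain clusters.

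The Schlafen genes, linked to growth arrest in immune cells, differed in the cells that held them. Slfn1 was at 7.49 in naive neutrophil-like cells (7.55 in Het, 7.37 in Hom) and 0.0837 in B-like cells, with a count in 81.7% and 3.06% of cells. Slfn4 was at 6.78 in the same neutrophil-like cells and 0.393 in monocyte-like cells. Slfn5 was highest among named brain clusters in endothelial cells and fibroblasts, at 3.83 (3.21 and 3.25 in CCR2+/-, 4.16 and 5.17 in CCR2-/- samples), 1.03 in border macrophages and dendritic cells and 0.137 in microglia-like cells. In naive blood it was at 3.50 in monocyte-like and 2.33 in neutrophil-like cells. Slfn8 showed the least contrast in blood, between 0.553 and 0.968 over the 4 main naive clusters.

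Of the other induced proteins, Plscr1, a phospholipid scramblase, was held mainly by endothelial cells and fibroblasts (the vessel cluster) among named brain clusters. It stood at 2.73 there, with samples at 1.70 and 3.23 (CCR2+/-) and 3.27 and 3.47 (CCR2-/-), and between 0.0235 and 0.341 elsewhere. Ifi27l2a, a small membrane protein, was at 8.12 in border macrophages and dendritic cells and 0.664 in microglia-like cells, and at 25.6 in naive monocyte-like cells. Lgals3bp, a secreted glycoprotein that binds galectins, was the 1 member highest in microglia-like cells, at 1.17 (1.29, 0.994, 1.18 and 1.21 by sample), though border macrophages and dendritic cells stood at 1.15. Phf11b reached 1.60 in naive monocyte-like cells and 0.0137 in neutrophil-like cells, and Ifi44 was absent from naive neutrophil-like cells with 21 counts in the whole table.

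Trim30a, a ubiquitin ligase that restrains inflammatory signalling, was at 0.935 in microglia-like cells and 4.54 in naive neutrophil-like cells. Rtp4 stood at 2.58 and Cmpk2, the mitochondrial nucleotide kinase beside Rsad2 in the genome, at 0.486 in the latter. Parp14, Xaf1 and Ifi35 lay between 0.293 and 1.24 over the named brain clusters. Shares of cells with a count were not read in low-RNA and platelet-like cells: the authors' depth correction adds counts to shallow cells, and Ifi27l2a had a count in 91.5% of naive low-RNA cells and 94.1% of platelet-like cells at levels of only 3.62 and 3.40.

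Which members were held by few cells was measured by ranking the cells of each cluster by their summed level of the other members, and asking what percentage of a gene's counts lay in the highest 2% of cells. The spread was wide in all 3 tables. Ifit3 had 43.4% of its brain counts in those cells, 46.4% in naive blood and 41.7% in blood of metastasis-bearing mice. At the other end Plscr1 had 2.51%, 1.30% and 2.12%, and Irf9 4.76%, 3.21% and 2.96%, near the 2% of an even spread.

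The members at or above 20% numbered 13 of 42 in the brain, 8 of 41 in naive blood and 5 of 41 in blood of metastasis-bearing mice, with medians of 13.5%, 10.5% and 9.33%. With each cell thinned to 1000 corrected counts they numbered 3, 5 and 4. The tetratricopeptide genes were at this end in each table: Ifit3b at 33.3%, 37.1% and 45.6%, Ifit2 at 32.2%, 39.3% and 34.7%, and Ifit1 at 29.7%, 30.9% and 35.2%. In the brain Oasl1 (42.6%), Mx1 (35.8%) and Isg15 (27.1%) were also at this end, and Rsad2 was at 24.1% in naive blood and 24.0% in blood of metastasis-bearing mice. Usp18 stood at 21.8%, 23.8% and 18.8%, and Irf7 at 24.2%, 14.5% and 12.7%. Some members changed place with the tissue: Slfn1 was at 13.5% in the brain and 4.72% and 4.50% in blood, and Oasl1 was at 16.0% in both blood tables. Ifit3 and Ifit3b are near-identical copies whose reads the authors' counting may split or drop. With cells ranked only by members of other gene families, Ifit3 was still at 39.7%, 44.4% and 40.3%.

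**Figure D2:**
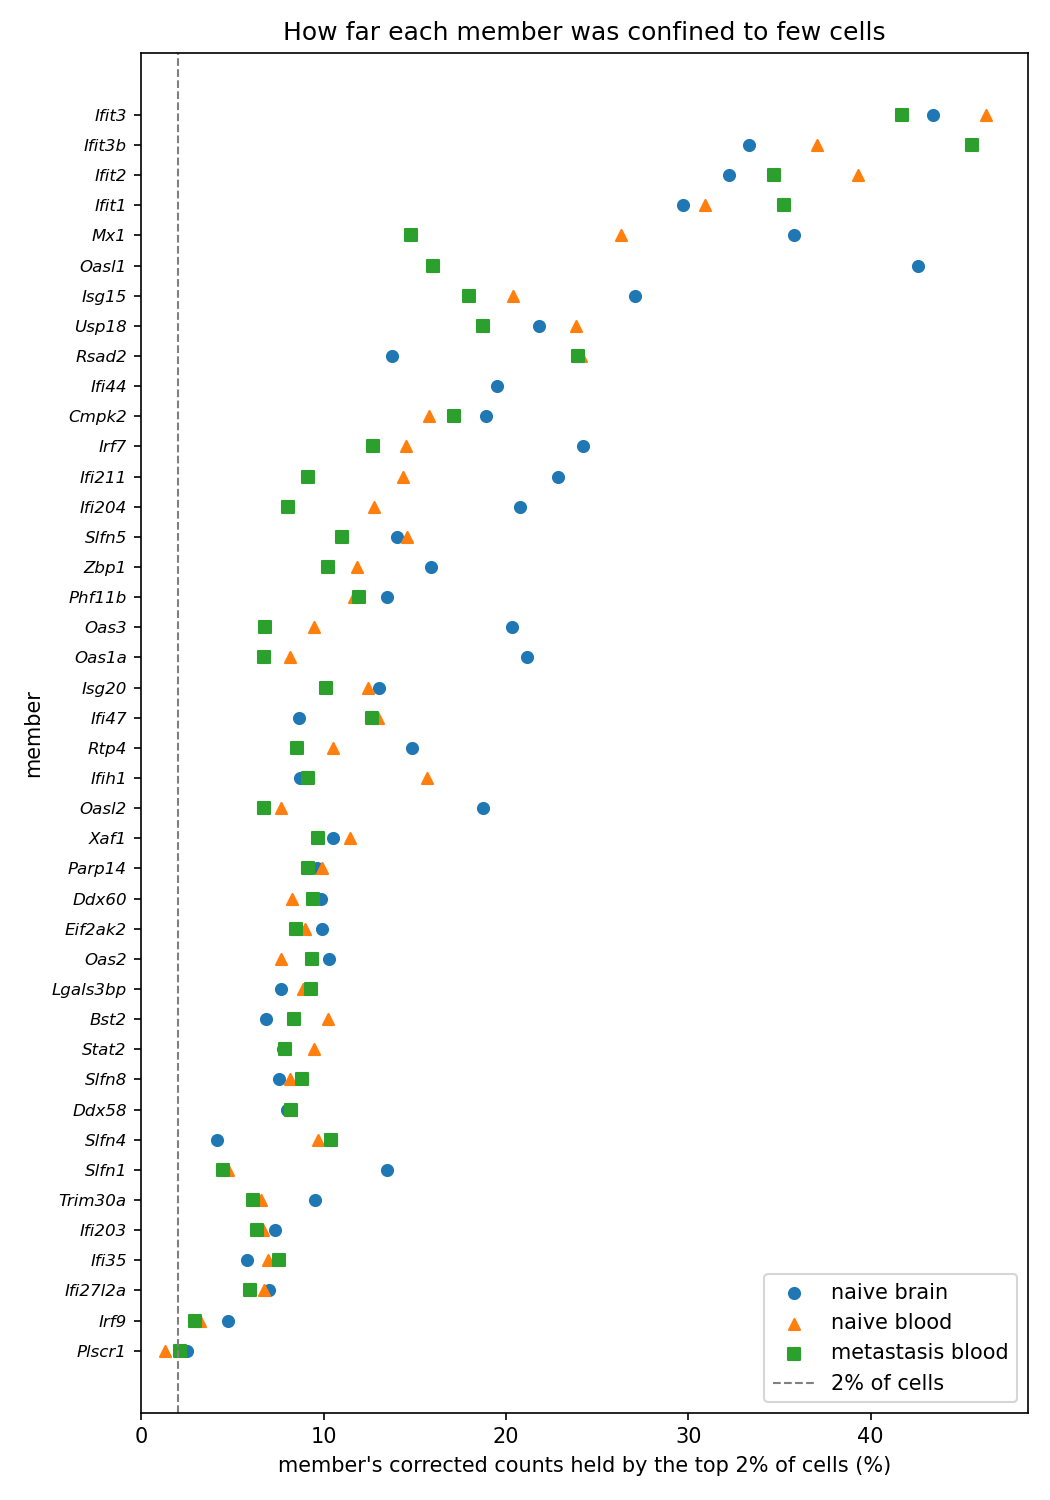
Percentage of each member's corrected counts that lay in the 2% of cells with the highest summed level of the other members, by table; the dashed line marks 2%. Ifit3, Ifit3b, Ifit2 and Ifit1 lie between 29.7% and 46.4% in every table, while Plscr1 and Irf9 lie below 5%.

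The cells behind these percentages were chosen by the members themselves, so the counts of members that follow only describe them. In microglia-like cells 25 cells made up the highest 2%, with 9, 5, 4 and 7 from the 4 samples. They held a median of 19 members each, against 5 in the other microglia-like cells, and up to 32, at a median depth of 8722 UMIs against 10050. The lowest summed level among them was 47.5 per 10000, with the next cell below at 45.6, so no gap set them apart. With the gene looked at left out of the ranking, the highest 2% of cells can differ from these 25. So ranked, they held 71 of the cluster's 119 Ifit3 counts (59.7%) but 135 of its 1466 Bst2 counts (9.21%).

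The top cells of the main blood classes were chosen in the same way and are described likewise. The 24 highest naive neutrophil-like cells (11 Het, 13 Hom) held a median of 25 members against 8, and the 8 highest monocyte-like cells (1 Het, 7 Hom) 32.5 against 12, and up to 38. In B-like cells of naive mice 25 cells (12 Het, 13 Hom) held 17 against 4. In metastasis-bearing mice the 33 highest neutrophil-like cells (11 Het, 22 Hom) held 20 against 5, and the 17 monocyte-like cells (7 Het, 10 Hom) 30 against 10.

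Each cell was thinned to 1000 corrected counts, which evens the corrected totals only. Counts that the depth correction added to shallow cells stayed in, so cells of unlike raw depth are not fully comparable. With at least 5 members then seen in a cell as the mark, 2.03% of microglia-like cells passed (exact 95% interval 1.32 to 2.98), with samples at 2.60%, 2.19%, 2.08% and 1.49%. Border macrophages and dendritic cells stood at 14.5% and 11.8% (CCR2+/-), and at 0 of 32 cells, which allows up to 9.38% (3 counts of the total; exact 95% upper limit 10.89%), and 19.6% (CCR2-/-). Naive monocyte-like cells passed in 47.4% (Het) and 37.9% (Hom), B-like cells in 5.51% and 3.47%. Without thinning 55.1% of microglia-like cells passed. These intervals and limits cover counting error only.

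Genes outside the list that were most raised in the top cells were in part further interferon-induced genes. In naive blood they included Trim30c (26.2 times the level of other cells, with a count in 19.5% of top cells against 0.892%), Cxcl10 (21.7 times), Phf11d (20.6), Slfn9 (17.3) and Ifi205 (17.1). In metastasis-bearing mice Cxcl10 led at 32.8 times, followed by Retnla at 15.4, Oas1g at 12.2 and Herc6 at 11.2. In the brain Ccl22 (49.2 times) and Ccl17 (38.0 times), chemokines of mature dendritic cells, came first. Their counts in the top cells, 54 and 45, each came from a single cell (1.52% of them). AA467197 followed at 20.8 times and Phf11a at 19.9 times, with a count in 9.09% and 16.7% of the top cells. Members with and without the core element in the promoter had like percentages. The median percentage in top cells was 13.5% with it and 13.04% without in the brain (19 and 15 genes), and 10.3% and 10.6% in naive blood (19 and 14 genes), given as a description.

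The first comparison of the design asks how loss of CCR2 bears on the genes in the naive brain. In the cluster of endothelial cells and fibroblasts the members were mostly higher in CCR2-/- samples, with Bst2 alone called; no member was called in the other 4 clusters. Bst2 stood at 2.16 and 2.60 in CCR2+/- and at 6.41 and 5.45 in CCR2-/- samples, and had a count in 49.5%, 67.2%, 85.2% and 89.2% of cells. The genotypes did not overlap. Bst2 rose, with a log2 difference of 1.31 (SE 0.195) and a limma adjusted p of 0.0433. It was 1 of 31 members tested, against 0.127% of 9485 genes called in either direction and 0.105% called higher.

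The rest of the list leaned the same way without being called. Of the 31 tested, 28 had differences above 0, with a median of 0.60 against -0.08 over all genes. An unadjusted limma p under 0.05 was seen for 13 of them and for 699 of all 9485 genes. By role, differences above 0 were seen for 5 of 6 sensors, 8 of 9 effectors, 3 of 3 signal factors, 2 of 2 genes of the ISG15 system, the 1 Schlafen gene tested and 9 of 10 other proteins. The 11 members not tested had too few counts there.

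Several had levels that did not overlap between genotypes. With 2 samples per genotype only 6 splits exist, so such separation is common even in genes without a genotype difference. The share of all genes that separate in this way was not counted, so the values below are a description. Ifi47 was at 0.708 and 0.781 against 2.15 and 1.28 (log2 1.14, limma adjusted p = 0.285). Stat2, a subunit of the activated factor complex, was at 0.228 and 0.422 against 0.935 and 0.660 (log2 1.31, limma adjusted p = 0.397). Ifi44 stood at 0.266 and 0.211 against 0.561 and 0.681 (log2 1.33, limma adjusted p = 0.281), and Ifi35 at 0.911 and 0.865 against 1.52 and 1.92 (log2 0.93, limma adjusted p = 0.292). In each of these genes both CCR2-/- samples stood above both CCR2+/- samples. Trim30a was at 0.392 and 0.380 against 0.771 and 0.745, a log2 difference of 0.95.

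Some other members overlapped between the genotypes. Ifit3 was at 0.746 and 1.12 against 0.748 and 0.788, a log2 difference of -0.24, and Ifit1 at 0.595 and 0.802 against 0.701 and 1.13. Rsad2 was at 0.949 and 2.51 against 2.43 and 2.13. Ifi27l2a did not overlap and was the other way, with both CCR2-/- samples below both CCR2+/- samples. It stood at 0.848 and 1.73 against 0.444 and 0.681 (log2 -1.10, limma adjusted p = 0.532).

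**Figure D3:**
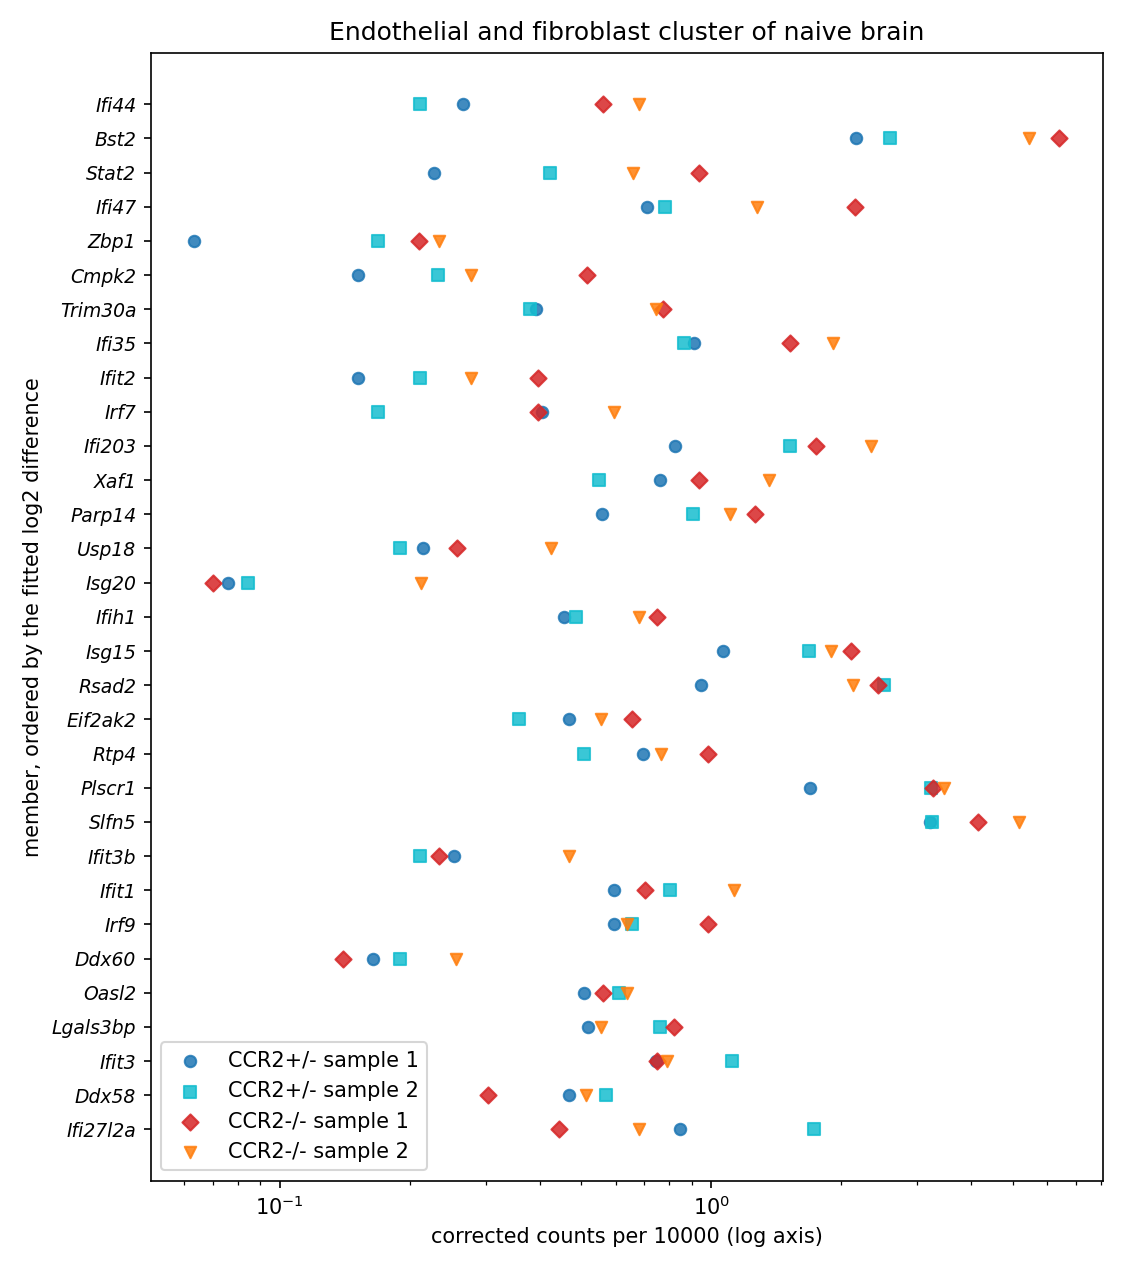
Level of the tested members in endothelial cells and fibroblasts, in each of the 4 brain samples (points, log axis, corrected counts per 10000), ordered by the fitted log2 difference. Bst2, the 1 member called, has both CCR2-/- samples (6.41 and 5.45) above both CCR2+/- samples (2.16 and 2.60), while Ifi27l2a is the other way.

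This cluster was a mixture, and its makeup differed between samples. The summed endothelial markers stood at 114.7 and 106.2 (CCR2+/-) and 124.3 and 150.7 (CCR2-/-) per 10000, the fibroblast markers at 10.0 and 38.4 against 14.7 and 4.90, and the mural markers at 30.0 and 12.8 against 12.9 and 11.3. Haemoglobin genes were at 42.3 in CCR2+/- sample 1 and at most 0.830 in the others, and choroid plexus genes at 5.92 and 4.33 against 7.92 and 31.9. Their part in the result was not tested. In the cells with mainly endothelial marker counts (70, 41, 49 and 55 cells), a choice made after seeing the data, Bst2 was at 2.76 and 3.53 against 7.82 and 6.16 (log2 1.14, limma adjusted p = 0.0262). Isg15 was at 1.15 and 0.747 against 2.47 and 2.20 (log2 1.30, limma adjusted p = 0.0339), and Ifi47 at 0.815 and 0.509 against 2.57 and 1.40 (log2 1.51, limma adjusted p = 0.0341). These were 3 of 30 members tested, against 0.319% of 7846 genes called higher. There 28 of 30 differences were above 0, with a median of 0.83, and Ifi27l2a stood at 0.16. Ifit3, which overlapped in the whole cluster, was at 0.557 and 0.238 against 0.845 and 0.876 (log2 1.17, limma adjusted p = 0.385), and Ifit1 at 0.596 and 0.238 against 0.845 and 1.25 (log2 1.37, limma adjusted p = 0.227). These 2 genes no longer overlapped, and the difference of Ifit3 had turned from below 0 to above 0. Here too the share of all genes without overlap was not counted. In the whole cluster Bst2 was no longer called with either CCR2-/- sample left out. Such a fit leaves 1 sample in that group, and the cause of the loss was not tested. The median member difference was then 0.63 without CCR2-/- sample 1 and 0.65 without CCR2-/- sample 2. Nor did Bst2 pass in the deeper cells alone (limma adjusted p = 0.0669).

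Summed over all 42 members, the vessel cluster stood at 21.6 and 28.4 in CCR2+/- samples (mean 24.96 ± 4.80, SD, n = 2) and at 38.0 and 38.7 in CCR2-/- samples (38.3 ± 0.514, SD, n = 2). The groups did not overlap, and the two-sided exact permutation p was 0.333, the smallest that 6 splits allow. The share of its cells with at least 5 members after thinning was 5.41% and 12.5% against 23.0% and 36.9%. In the mainly endothelial cells the sums were 26.0 and 30.3 against 46.1 and 43.2.

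**Figure D4:**
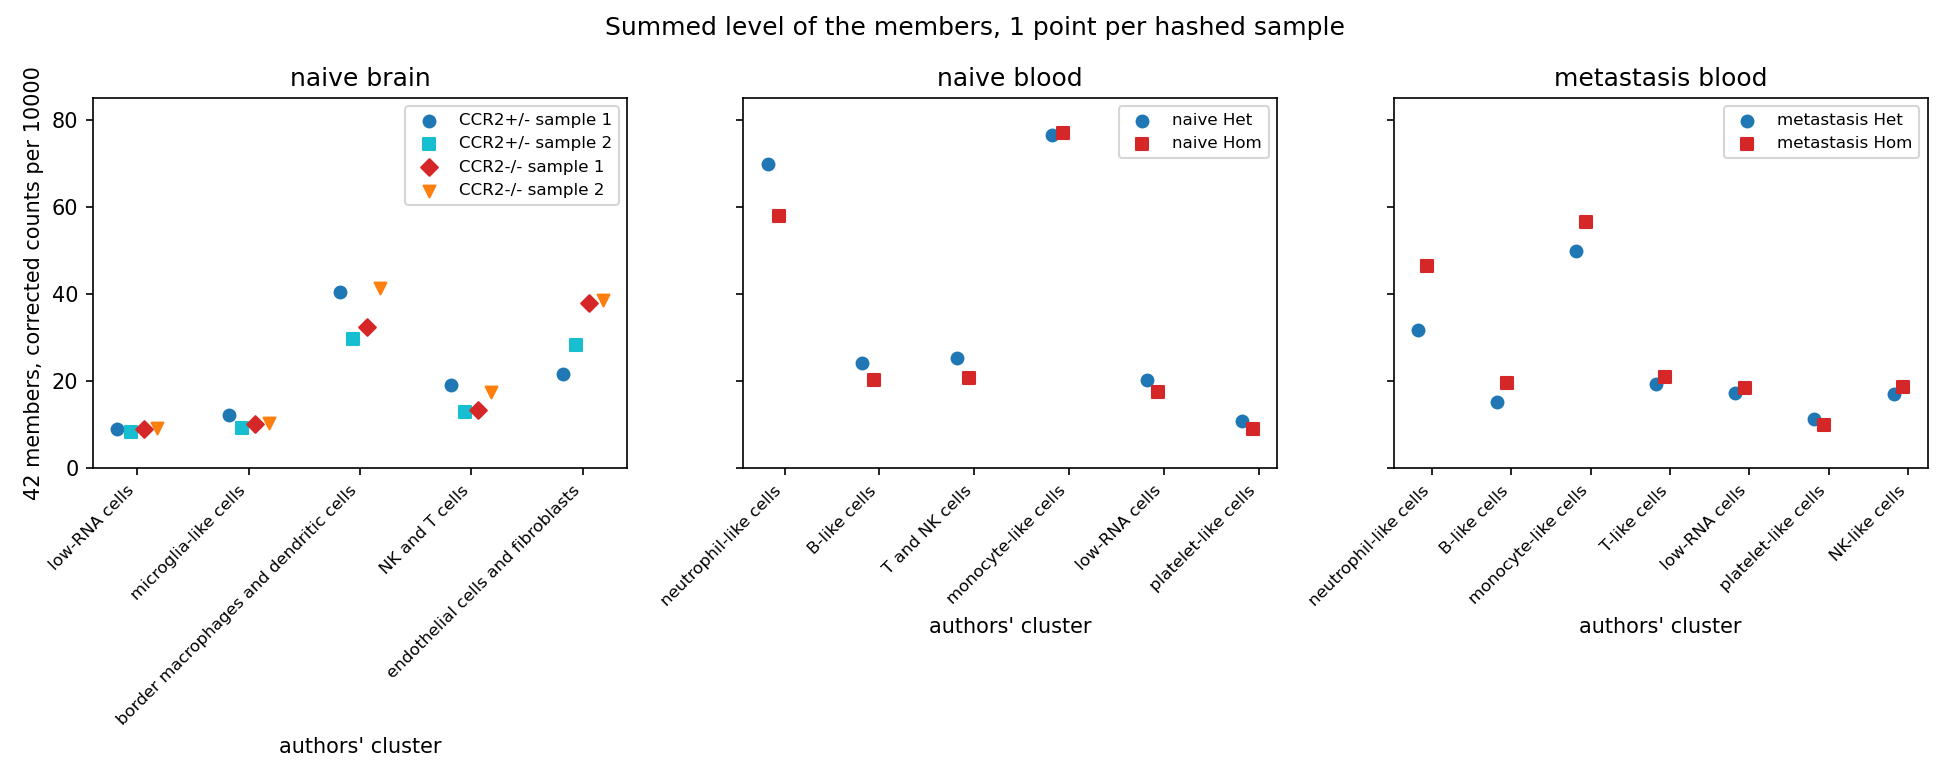
Summed level of the 42 members per hashed sample in each cluster (points; corrected counts per 10000), in 3 panels for brain, naive blood and blood of metastasis-bearing mice. In brain the endothelial and fibroblast cluster has both CCR2-/- samples (38.0 and 38.7) above both CCR2+/- samples (21.6 and 28.4), and microglia-like samples lie between 9.29 and 12.2.

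Microglia-like cells showed no such lean. Their summed levels were 12.2 and 9.29 (CCR2+/-) and 10.2 and 10.3 (CCR2-/-). By limma 0 of 37 members tested passed, against 0.532% of 10713 genes called. An unadjusted limma p under 0.05 was seen for 2 of the members and 949 of all genes. The differences were above 0 for 12 and below 0 for 25, with a median of -0.12 against -0.04 over all genes. Ifit2 had the lowest p, at 0.158 and 0.0585 against 0.0274 and 0.0323 (log2 -1.56, limma adjusted p = 0.138), followed by Slfn5 (log2 -0.72, adjusted p = 0.436) and Irf7 (log2 -0.73, adjusted p = 0.614).

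Whether the vessel cluster differed from microglia-like cells in its genotype difference was tested directly. Of 30 members 27 had a larger difference in the vessel cluster, with a median of 0.76 against -0.03 over 8259 genes. An unadjusted limma p under 0.05 was seen for 10. The number over all genes was not counted, so no excess can be read from these 10. None passed over all genes by limma, where 0% of genes were called, so a difference between the clusters was not shown for any single member.

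Border macrophages and dendritic cells had no member called among 37 tested by limma, against 0.244% of 6974 genes, with a median of -0.07 against 0.11. An unadjusted limma p under 0.05 was seen for 3 members and 613 of all genes. Zbp1 was at 0.637 and 0.398 against 1.08 and 0.764 (log2 0.83, limma adjusted p = 0.507), and Ifit1 at 0.835 and 0.133 against 0 and 0.176. The samples of this cluster differed in makeup, with CD8 T cell markers at 1.43, 0.186, 26.1 and 1.15 and border macrophage markers at 31.0, 17.6, 11.7 and 16.2 per 10000. Their part was not tested.

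In NK and T cells limma called 0 of 28 members, against 0.0141% of 7115 genes, with a median of -0.15. An unadjusted limma p under 0.05 was seen for 2 members and 285 of all genes. Ifi204 was at 0.175 and 0.344 against 0.0671 and 0.0890 (log2 -1.46), and Rtp4 and Slfn5 had differences of -1.20 and -1.30. In low-RNA cells 0 of 34 were called by limma, against 0.0607% of 9889 genes, with a median of 0.02. An unadjusted limma p under 0.05 was seen in these cells for 2 members and 550 of all genes. There Lgals3bp was at 0.0818 and 0.0672 against 0.215 and 0.183.

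The rest of the pathway was read from lists of 9 ligands, 7 receptors and kinases, 10 factors and inhibitors, and 46 other interferon-induced genes. Of the ligands 2 were in the brain table. Ifnb1 had 16 counts in border macrophages and dendritic cells (0.132, 0.0531, 0.207 and 0.0882 by sample) and 0 in the vessel cluster. Ifng, the type II interferon, was at 1.64 and 1.86 against 2.55 and 1.62 in NK and T cells. The receptor genes were present in the 3 main non-lymphoid clusters: Ifnar1 at 0.477 in microglia-like cells, 0.878 in border macrophages and dendritic cells and 0.592 in the vessel cluster, and Ifnar2 at 1.64, 1.71 and 1.46.

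In the vessel cluster 0 of 7 receptors and kinases and 0 of 10 factors and inhibitors were called by limma; 9 of those 10 factors had differences above 0. Among 38 of the 46 other induced genes tested, 5 rose and 29 had differences above 0, with a median of 0.63, against 0.105% of genes called higher and a median of -0.08 over all genes. They were the guanylate-binding GTPases Gbp4, at 0.354 and 0.338 against 2.43 and 1.87 (log2 2.57, limma adjusted p = 0.0127), Gbp7 (log2 1.73) and Gbp5 (log2 1.62), the related GTPase Igtp (log2 2.46) and the peptide transporter Tap1 (log2 1.92). These 5 are known to answer interferon gamma as well. In microglia-like cells Gbp5 alone rose, by 0.76 (limma adjusted p = 0.0206), of 41 tested and against 0.532% of genes called. Cxcl10, an interferon-induced chemokine, was a baseline gene of microglia-like cells (1.82) and border macrophages and dendritic cells (3.91) and low in the vessel cluster (0.134).

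The blood comparison sets Hom against Het with 1 sample in each group, so it has no replicate check and no test. Ratios carry exact 95% intervals that cover counting error only, and a gene is counted as past the mark where the ratio is at least 1.5 with an interval excluding 1 and at least 20 counts. Log2 differences carry a pseudocount of 1 summed count.

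In naive neutrophil-like cells (795 Het, 377 Hom) the members were mostly lower in Hom, while Ifit2, Ifit3 and Ifit3b were higher. Of 37 with enough counts, 3 were past the mark higher and 13 lower, against 13.1% and 5.66% of 6447 genes. The median was -0.41 against 0.21 over all genes. Slfn4 was at 8.09 in Het and 3.98 in Hom (log2 -1.02, ratio 0.492, 0.450 to 0.536), and Trim30a at 5.19 and 3.15 (log2 -0.72). Oas2 was at 0.868 and 0.401 (log2 -1.09). Plscr1 was farthest, at 0.675 and 0.105 (log2 -2.61, ratio 0.155, 0.089 to 0.254).

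Of 11 sensors described in these cells 6 were lower past the mark, among them Oasl1 (0.621 and 0.309), Oas3 (2.44 and 1.52) and Ddx60 (1.18 and 0.766). Stat2 stood at 0.563 and 0.290 and Slfn5 at 2.69 and 1.55. The 3 higher ones were Ifit3, at 0.471 in Het and 1.15 in Hom (log2 1.28, ratio 2.44, 1.97 to 3.02), Ifit3b at 0.431 and 0.661, and Ifit2 at 0.126 and 0.216. Slfn1 (7.55 and 7.37) and Ifi27l2a (12.8 and 15.0) were not past the mark. Isg15, with 20.4% of its naive counts in the top cells, stood at 3.61 and 2.71, so members held by few cells were not all higher in Hom.

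The summed level was 69.8 in Het and 57.8 in Hom, and 64.7 and 51.2 without the highest 2% of cells. This direction depended on which cells were read. In the 84 Het and 17 Hom cells whose raw depth reached the corrected depth, the sums were 63.3 and 86.8 and the median member difference was 0.15. Among cells with a count of Mmp8, a gene of younger neutrophils, the sums were 63.5 and 62.0, and among those without it 77.6 and 52.7. Mmp8 itself was at 4.53 in Het and 3.40 in Hom. The part of depth or maturity in the difference was not tested. The share of cells with at least 5 members was 39.9% (36.5 to 43.4) in Het and 22.8% (18.7 to 27.4) in Hom.

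In neutrophil-like cells of metastasis-bearing mice (800 Het, 808 Hom) the members were mostly higher in Hom. Of 36 described, 15 were past the mark higher and 0 lower, against 3.76% and 3.51% of 7013 genes, with 32 above 0 and a median of 0.53 against 0.01. Ifi27l2a was at 4.60 in Het and 9.54 in Hom (log2 1.05), Rtp4 at 1.32 and 2.61 (log2 0.98), and Isg15 at 0.942 and 1.71 (log2 0.85). Ifit3 was at 0.207 and 0.545 (log2 1.39, ratio 2.63, 1.99 to 3.53), Ifit3b at 0.165 and 0.448, and Ifit1 at 0.300 and 0.634. Ifi27l2a, held by many cells, and Ifit3, held by few, thus lay on the same side in this pair.

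Rsad2 stood at 0.606 and 1.09, Usp18 at 0.111 and 0.246, and Slfn4 at 1.93 and 2.96, all past the mark. Slfn1 (6.55 and 6.26) and Plscr1 (0.357 and 0.344) were not. The sums were 31.8 and 46.4, and 29.2 and 44.0 in the deeper cells. With a count of Mmp8 they were 30.1 and 44.3 and without it 34.5 and 48.2, so the direction was the same in each of these subsets. The share of cells with at least 5 members was 12.4% (10.2 to 14.9) in Het and 21.0% (18.3 to 24.0) in Hom.

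**Figure D5:**
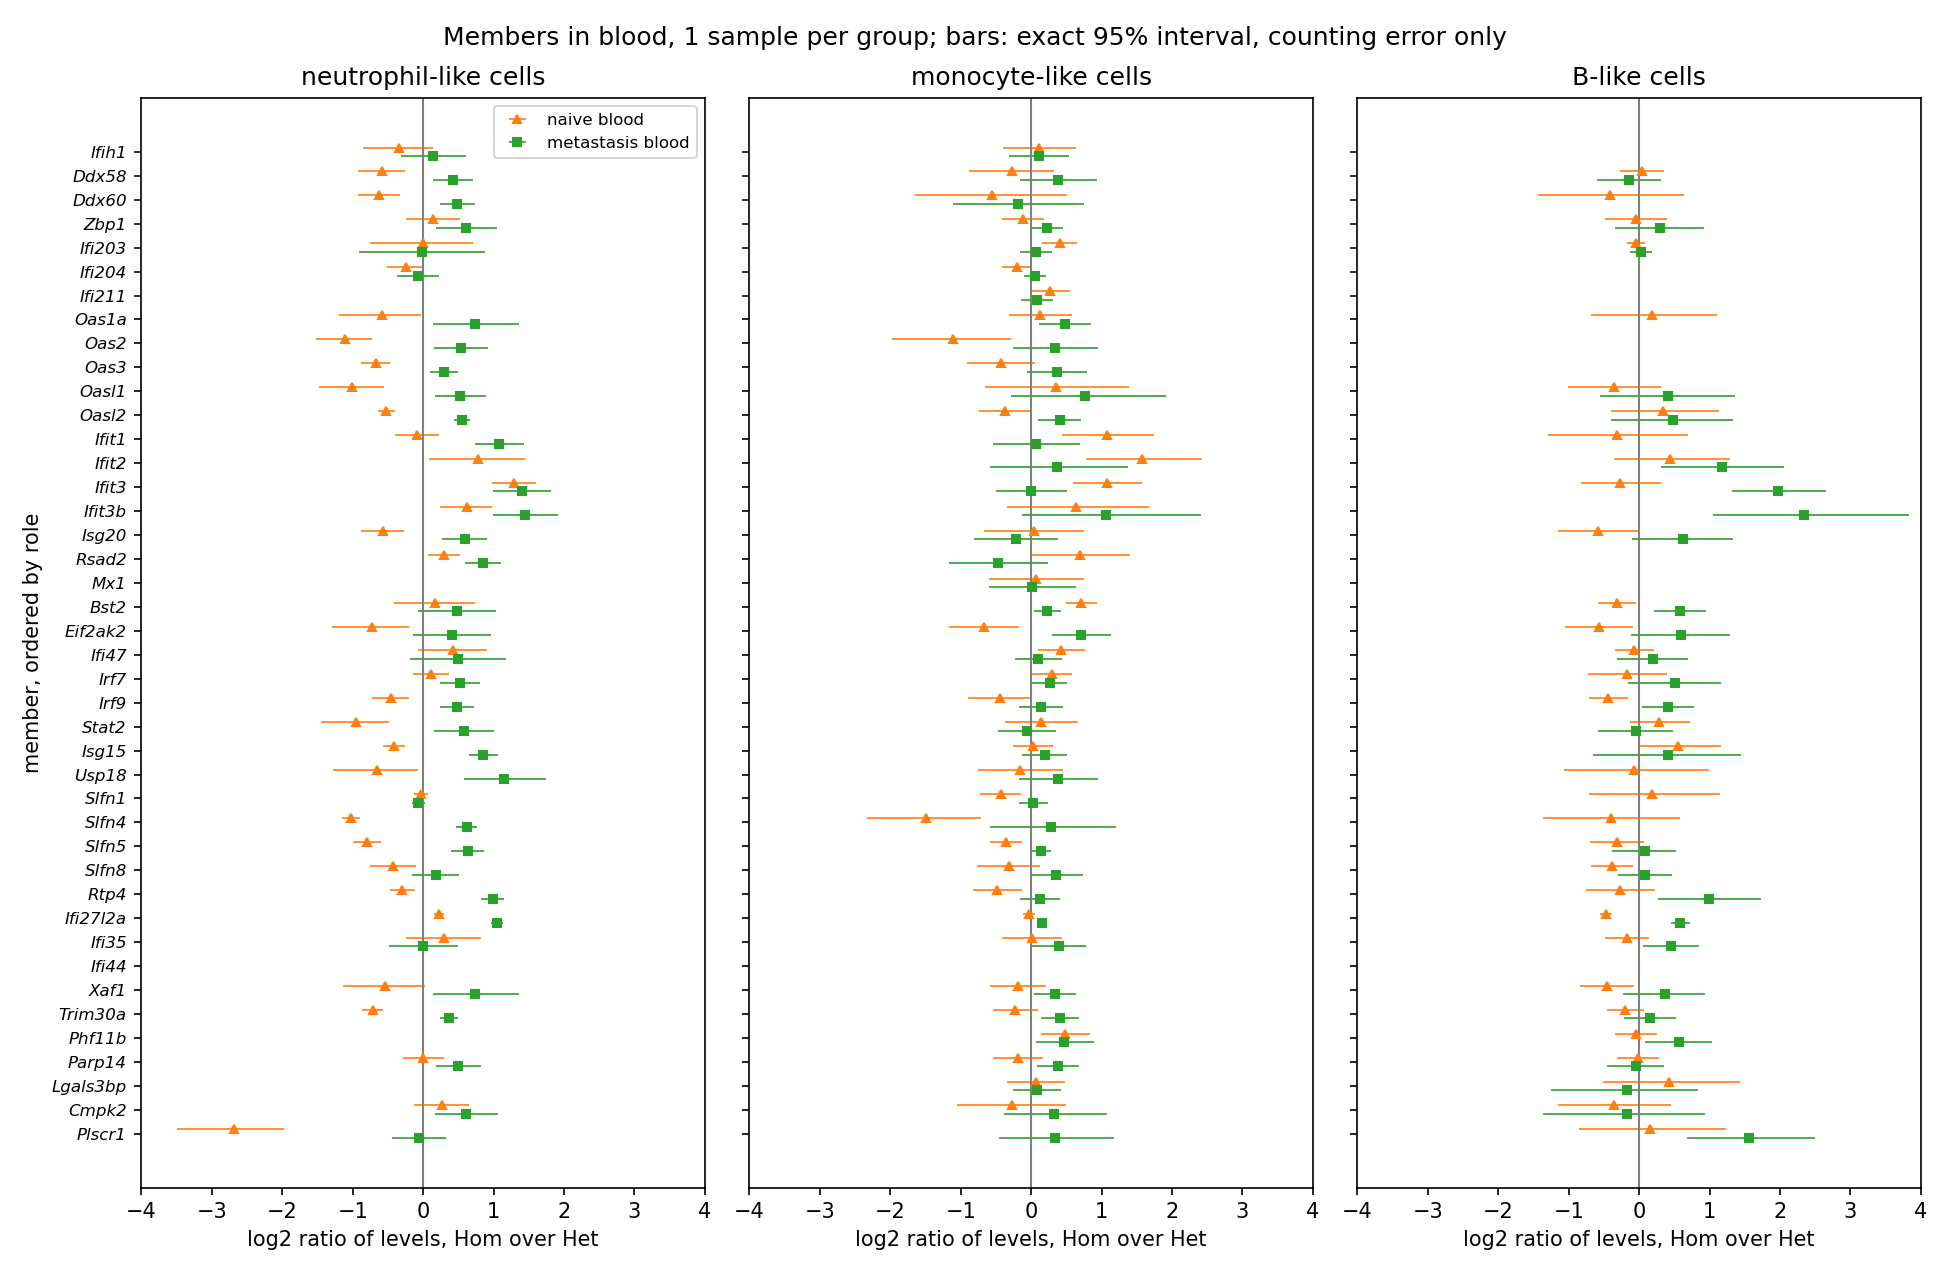
Log2 ratio of Hom over Het for each member (ratio of levels with no pseudocount), with exact 95% intervals for counting error, in neutrophil-like, monocyte-like and B-like cells (triangles, naive mice; squares, metastasis-bearing mice). In neutrophil-like cells 13 members are past the mark below 0 in naive mice and 15 above 0 in metastasis-bearing mice, with Ifit3 above 0 in both.

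Naive monocyte-like cells (175 Het, 182 Hom) had like sums, 76.5 and 77.1. There 5 of 40 members were higher past the mark and 3 lower, against 2.78% and 5.63% of 5970 genes, with a median of -0.01. The 5 were effectors: Ifit2 (0.202 in Het, 0.600 in Hom), Ifit3 (0.605 and 1.28), Ifit1 (0.347 and 0.731), Rsad2 (0.336 and 0.546) and Bst2 (3.12 and 5.10, ratio 1.64, 1.41 to 1.91). Slfn4 (0.583 and 0.207), Oas2 and Eif2ak2 were lower. The Het cells carried more S100a8 and S100a9, neutrophil genes, with the neutrophil list at 62.97 against 12.24 per 10000. The Hom cells carried more type 2 dendritic cell markers, at 32.31 against 11.33, and haemoglobin genes, at 39.66 against 0.661. Their part was not tested. Of the 8 highest cells 7 were Hom, and without the highest 2% of cells 9 members were past the mark.

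In monocyte-like cells of metastasis-bearing mice (322 Het, 482 Hom) only Eif2ak2 of 41 members was past the mark (0.441 and 0.719, ratio 1.63, 1.23 to 2.19), against 1.67% of 7409 genes higher and 4.97% lower. The sums were 49.96 and 56.6. Ifi27l2a was at 16.8 and 18.7 there, and at 25.9 and 25.4 in naive mice.

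Lymphocytes gave fewer values. In naive B-like cells 0 of 33 members were past the mark, against 3.01% of 8796 genes, with a median of -0.18; Ifi27l2a was at 8.76 and 6.34. In metastasis-bearing mice 5 of 28 were higher, against 4.38% of 8077 genes in either direction and 2.53% higher, with a median of 0.43. They were Ifit3 (0.112 and 0.440), Ifit3b, Ifit2, Rtp4 and Plscr1 (0.0698 and 0.206). In the deeper B-like cells 1 was past the mark and the median was -0.07. The neutrophil list in these B-like cells stood at 11.47 in Het and 20.93 in Hom per 10000, and its part was not tested. Naive T and NK cells had 1 of 29 higher (Plscr1) and 4 lower, against 4.5% of 7519 genes, with Ifi27l2a at 7.25 and 4.20. The makeup of this cluster differed, with NK markers at 26.92 in Het and 57.74 in Hom, CD8 T cell markers at 46.38 and 73 and the neutrophil list at 13.33 and 7.64. Their part was not tested. T-like cells of metastasis-bearing mice had 0 of 21 past the mark, against 5.05% of 5124 genes.

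The blood tables, which the authors had corrected separately, can be read side by side. In 845 barcodes present in both, 41 members differed by a median log2 of 0.02 and by -0.06 to 0.09, so in those cells the 2 corrections gave like levels. Slfn4 in neutrophil-like cells was at 8.09 and 3.98 in naive Het and Hom and at 1.93 and 2.96 in metastasis Het and Hom, so the naive samples were both higher. Isg15 was at 3.61 and 2.71 against 0.942 and 1.71, and Oasl2 at 6.52 and 4.54 against 3.37 and 4.95, where the groups overlapped. Slfn1 was at 7.55 and 7.37 against 6.55 and 6.26. Bst2 in monocyte-like cells was at 3.12 and 5.10 against 2.29 and 2.69, and Ifi211 at 2.12 and 2.54 against 1.73 and 1.83. In B-like cells Ifi203 was at 3.94 and 3.82 against 3.60 and 3.67. With 1 sample of each kind these are descriptions of 4 samples, and the tumour, the injection and the sample itself cannot be told apart.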

How the data were processed

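RNA, antibody tags and hashtags of 8 hashed mouse samples were read in 1 single-cell pool. The submitters' processing notes name Cell Ranger 3.1 and mm10; filters on cells are not given in the sources used here. The deposited values are the natural log of 1 plus a count that the authors corrected for depth (SCTransform layout of the deposited tables), separately in 3 tables. Back-transformed values were whole to within 2.18e-11, so these corrected counts were used, and raw counts were not used here. The correction added genes in 41.6%, 25.3% and 21.0% of clear cells, in none of which the raw total reached the corrected one. The authors' deposited cell tables also give each cell's cluster, hashtag counts and raw UMI total.

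The 16328 deposited cells had 13757 different barcodes. Cells with a barcode in more than 1 table, or under 0.5 of hashtag counts from the table's own samples, were left out. This removes doublets between samples only; no caller for doublets within a sample was run. Clusters were named by marker lists. Members, gene lists and markers were chosen with earlier results of these data known.

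Brain counts were summed per sample and cluster, scaled, log2-transformed with a pseudocount of 1 and fitted with limma 3.58.1 (R 4.3.3) with a trend, for genes with at least 20 counts, in 5 clusters with at least 20 cells in every sample. A count test does not apply to corrected values, so limma replaced it. Genes under a Benjamini-Hochberg adjusted p of 0.05, taken over all genes, were called. Blood ratios carry exact 95% intervals. Scripts ran in python 3.11.15 with numpy 2.4.6, pandas 2.3.3 and scipy 1.17.1.

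In simulated counts of the microglia-like cluster limma found 100 of 100 genes changed 4-fold and 86 of 100 changed 2-fold, with 19 false calls among 10722 genes. The vessel cluster, with 61 to 111 cells per sample, was not simulated, so these rates do not carry over to it. In simulated naive neutrophil-like cells the ratio rule found 100 of 100 at either size, with 159 other calls among 6557 genes.

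Genes are named by a rule: per table the 6 members with the highest level and the 6 (of at least 50 counts) with the largest share in the top 2% of cells; per brain cluster the members called, or the 3 with the lowest p; per blood table up to 8 members past 1.5-fold; Cxcl10, Ifnar1, Ifnar2, Ifnb1, Ifng, Cx3cr1 and Ccr2 as checks; and up to 10 other genes most raised in the top cells. Other names were chosen after their values were seen, to place every role, and 1 gene of the rule is not reported here. Alternatives changed the cells, filter, pseudocount, scaling, thinning and samples.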

Additional observations from a re-analysis of the deposited data

Results flagged for a closer look

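Several members had effects of opposite direction in the 2 kinds of blood. With 1 sample per group, the differences between naive and metastasis-bearing mice were not tested. The values are log2 differences, Hom minus Het.

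In neutrophil-like cells Slfn4 was at -1.02 in naive and 0.62 in metastasis-bearing mice, Slfn5 at -0.79 and 0.63, Usp18 at -0.62 and 1.13, and Oas1a at -0.56 and 0.72. The median over the members described was -0.41 and 0.53. In B-like cells the median was -0.18 and 0.43, and in monocyte-like cells Eif2ak2 was at -0.66 and 0.69. In the cells whose raw depth reached the corrected depth the naive neutrophil median was 0.15 and the metastasis B-like median -0.07. In those deeper naive neutrophil-like cells Slfn5 was at 0.05, Usp18 at 2.11 (from 7 and 6 counts) and Oas1a at 0.30, while Slfn4 stayed below 0, at -0.72. Groups of 1 or 2 samples allow no search for a single sample that stands apart.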

How the results depend on the processing

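Over the main results and their alternatives, 169 values stayed within 1.5 times, within the spread between samples or within the main interval, and 56 moved. Direction was not part of this rule. In border macrophages and dendritic cells the median of -0.07 turned to 0.35 without CCR2-/- sample 1 and to 0.14 without CCR2+/- sample 1. Both lay within the spread of 0.466 and were counted as kept. The cause was not tested in each case below. No paired analysis was possible because the brain sample numbers name hashtags and pair nothing, and each blood group is 1 sample.

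Leaving out 1 brain sample in turn (a lone sample is assumed to vary like the others) gave 0 to 3 members called and medians of -0.33 to 0.16 in microglia-like cells, 0 to 6 called in border macrophages and dendritic cells, medians of -0.41 to -0.0702 in NK and T cells, and 0 to 6 called in the vessel cluster. There 1 member was called in the report, and 0 with deeper cells, with own hashtags at 0.8 or after thinning to 1000 counts, 2 with the mean of deposited log values and 3 in mainly endothelial cells. Its median of 0.60 was 0.42 in deeper cells, 0.83 in mainly endothelial cells, 0.72 after centring on the median gene and 0.72 thinned. With the mean of deposited log values it was 0.11, with 29 of 31 differences above 0. That value is a difference of mean logs per cell and cannot be compared in size with the others, which are from logs of summed counts. Thinning gave medians of 0.15 in low-RNA cells and 0.44 in NK and T cells. The choices of deeper cells, of mainly endothelial cells and of no thinning were made after seeing the data.

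In naive blood 6 neutrophil members were past the mark in deeper cells, with a reversed median of 0.15. B-like cells had 4 with all deposited cells, 2 with ratios divided by their median, and 1 each thinned, without the top 2% of cells and in deeper cells. T and NK cells had 8 with all cells, 3 at 50 counts or more and 1 thinned. Monocyte-like cells had 4 thinned, and a median of 0.0632 with ratios divided by their median. In metastasis-bearing mice B-like cells had 1 at 50 counts, 1 thinned, 3 without the top cells and 1 in deeper cells (median -0.0721). Monocyte-like cells had 0 with all cells, 2 thinned and 2 in deeper cells. T-like cells had 2 with all cells, 1 thinned (median -0.28) and 1 in deeper cells.

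Members with at least 20% of counts in the top cells numbered 3 thinned and 23 with the top 5% in the brain, 5 and 17 in naive blood, and 13 with the top 5% in metastasis-bearing mice. The share of cells with at least 5 members was 1.33% at 8 members and 77.1% without thinning in the vessel cluster, 0.487% and 55.1% in microglia-like cells, 12.5% and 79.6% (31.5% with all cells) in naive neutrophil-like cells, and 4.79% and 60.5% in those of metastasis-bearing mice.

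Corrected counts, 2 samples per brain genotype, 1 per blood group and 61 to 111 cells per sample in the vessel cluster limit all of these values. Genes under 20 counts, 11 members in the vessel cluster among them, were not tested.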
